A study of Homo sapiens with 6 samples.

Results

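The 10 genes described here encode keratins of simple epithelium (KRT8, KRT18, KRT7, KRT19, KRT20), keratins of stratified epithelium (KRT4, KRT15, KRT16), KRT80 and the hair keratin KRT81. They were chosen by gene symbol from a table of estimated read counts per transcript. Counts were summed over the transcripts of a gene, which gave 10 genes of the 28452 in the table. Another 45 keratin genes were listed beside them. All 10 genes passed the filter on low counts and were tested.

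The RNA came from A549, an established human lung adenocarcinoma cell line. The cells had been infected with lentiviruses to obtain stable expression of a short hairpin RNA. There were 3 groups of 2 libraries: shCBX8-2 and shCBX8-1 carried a shCBX8 hairpin, and control carried a control hairpin. All 3 groups were thus infected cells of the same line. What the first number in those titles stands for is not stated, and the labels do not say if paired libraries were grown separately, so p-values cover only the spread between these libraries, which may be technical. The series title names the repression of CDKN2C and SCEL by CBX8, and the comparisons below ask how keratin RNA differed when CBX8 was lowered.

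Keratins are intermediate filament proteins that build filaments only as pairs of an acidic type I and a basic type II chain. In humans the type I genes lie in a cluster on chromosome 17 and the type II genes in a cluster on chromosome 12, which also holds the type I gene KRT18. Simple epithelia, such as those of glands and the lining of the lung, are known for KRT8 with KRT18, often joined by KRT7 and KRT19, while stratified epithelia use other pairs by layer and by state of growth. CBX8 is a chromobox subunit of a Polycomb repressive complex, which binds methylated histone tails and keeps genes silent.

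Total estimated counts were 64317603 to 67169537 in shCBX8-2, 64197784 to 65515050 in shCBX8-1 and 64751043 to 64822441 in control. The 10 keratins took 3.40 and 3.10% of the counts of the shCBX8-2 libraries, 2.66 and 2.63% of the shCBX8-1 libraries and 3.06 and 3.01% of the control libraries. The 2 shCBX8-2 libraries stood further apart than the others, with a median absolute difference per gene of 0.207 log2 against 0.115 in shCBX8-1 and 0.116 in control. CBX8 itself had 17.7 and 13.8 CPM in shCBX8-2, 7.79 and 7.70 CPM in shCBX8-1 and 24.6 and 26.3 CPM in control, where CPM is the count scaled by the TMM method to a common library total. Its level in shCBX8-2 was 61.9% of the control mean and in shCBX8-1 30.4%. Epithelial markers summed to 25641 and 28967 CPM in shCBX8-2, 19867 and 20182 CPM in shCBX8-1 and 22557 and 23175 CPM in control. Most of that sum came from KRT8 and KRT18, which are on that list too. The other markers of the list moved in both directions. EPCAM was at 226% of the control mean in shCBX8-2 and 122% in shCBX8-1. CDH1 was at 88.0% in shCBX8-2 and 52.8% in shCBX8-1, and CLDN7 at 61.9% and 58.2%. ESRP1 averaged under 1 CPM. Of 10 markers of lung epithelium 8 were under 1 CPM on average, and SCGB1A1, the club cell secretory protein, was at 0 in all 6 libraries.

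Fold changes are given as log2 ± SE from edgeR's quasi-likelihood test, with p-values adjusted by Benjamini and Hochberg over 17115 genes and a threshold of 0.05. Against control, 5 of the 10 keratins rose and 1 fell in shCBX8-2, 2 rose and 1 fell in shCBX8-1, and 4 rose and 1 fell in the mean of both knockdown groups. Across all genes tested, 6.03% were higher and 6.64% lower in shCBX8-2, 1.34% higher and 1.13% lower in shCBX8-1, and 3.31% higher and 3.48% lower in the mean of both. Between the knockdown groups, 4 keratins were higher and 1 lower in shCBX8-2 than in shCBX8-1, with 4.05% of all genes higher and 5.77% lower. The median log2 difference of the 10 keratins was 0.35 in shCBX8-2, 0.09 in shCBX8-1 and 0.20 in the mean of both against control, beside medians over all genes of -0.04, -0.01 and -0.04. KRT20 was the single keratin that fell in each of the 3 comparisons with control, and no keratin rose in both shCBX8-2 and shCBX8-1 taken alone with edgeR. DESeq2's Wald test called 7 of the 10 in shCBX8-2, 4 in shCBX8-1 and 6 in the mean of both, beside 20.8%, 9.99% and 14.3% of all genes. With that test 2 keratins rose in both groups: KRT15 (adjusted p = 2.8e-40 in shCBX8-2 and 0.00431 in shCBX8-1) and KRT4 (0.0363 in shCBX8-2 and 0.000114 in shCBX8-1). The 3 comparisons share the control libraries and are not independent.

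**Figure D1:**
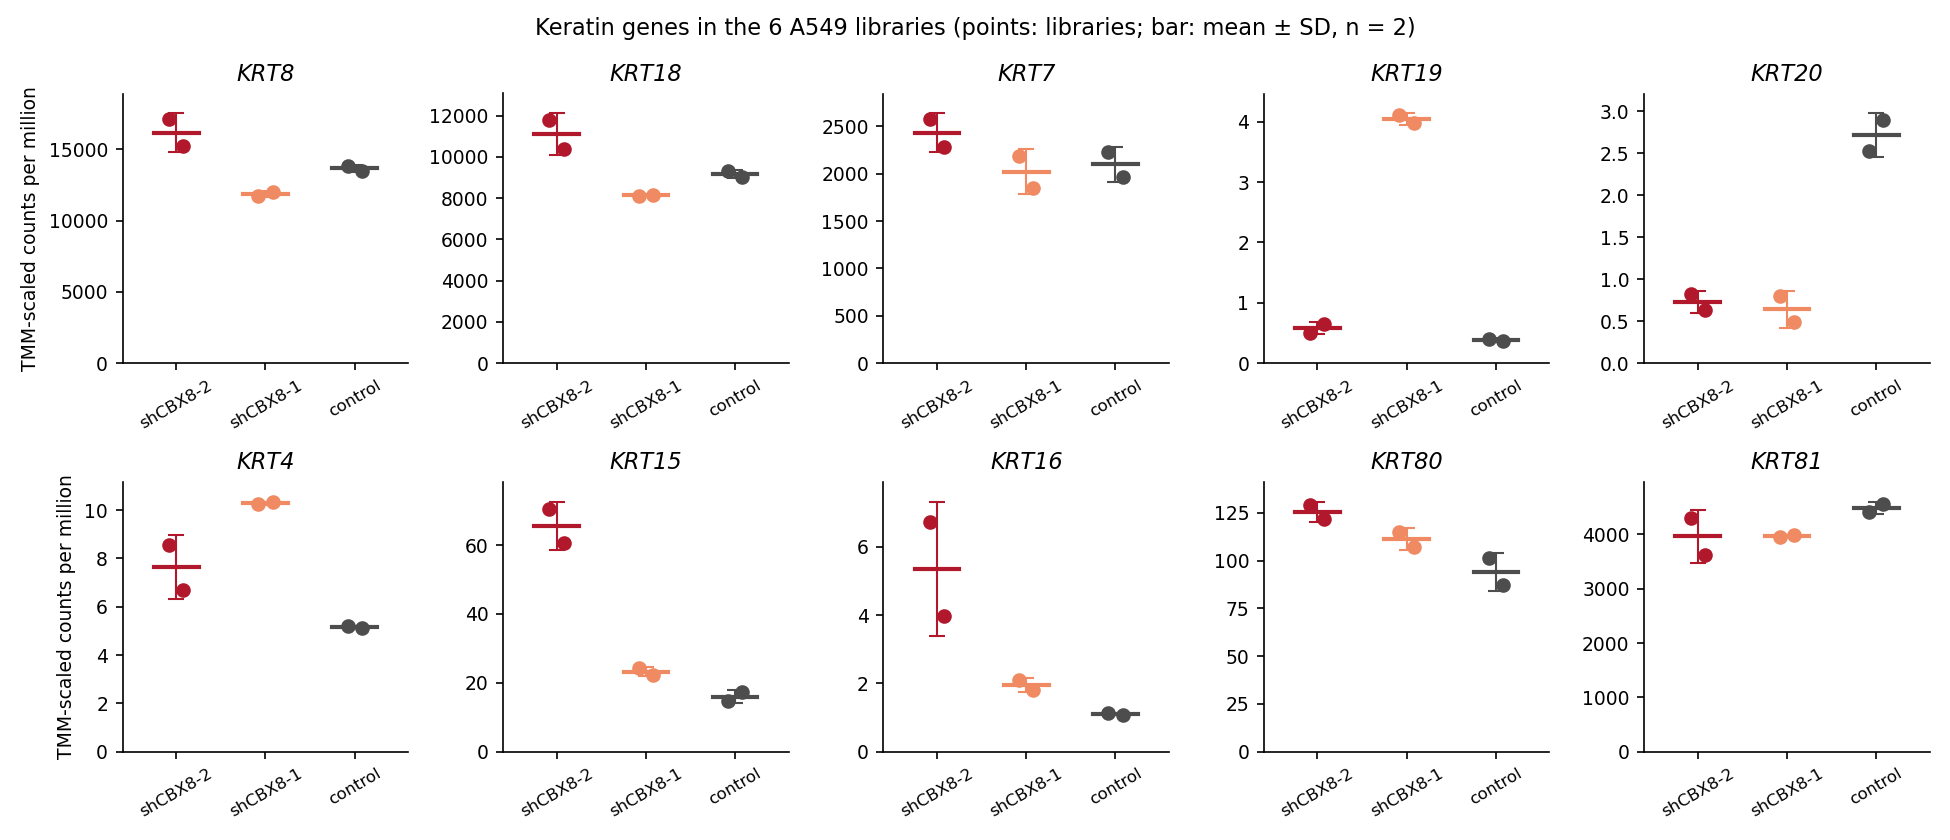
Each panel shows 1 keratin gene, with TMM-scaled CPM on a linear axis from 0, points for the libraries of shCBX8-2, shCBX8-1 and control, and a bar for the mean ± SD of 2 libraries. KRT15 and KRT16 are highest in shCBX8-2, KRT19 and KRT4 in shCBX8-1, and KRT20 in control.

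KRT8, the type II keratin of simple epithelia, had 17126 and 15222 CPM in shCBX8-2, 11729 and 12023 CPM in shCBX8-1 and 13845 and 13507 CPM in control. KRT18, its type I partner, had 11813 and 10391 CPM in shCBX8-2, 8120 and 8143 CPM in shCBX8-1 and 9304 and 9021 CPM in control. For both genes the shCBX8-2 libraries were highest and the shCBX8-1 libraries lowest, and the 3 groups did not overlap. In shCBX8-2 minus control KRT8 rose by 0.24 ± 0.06 (adjusted p = 0.0463) and KRT18 by 0.28 ± 0.06 (adjusted p = 0.0369). In shCBX8-1 minus control KRT8 differed by -0.20 ± 0.06 (adjusted p = 0.152) and KRT18 by -0.17 ± 0.06 (adjusted p = 0.240), neither past the threshold. The mean of both knockdown groups therefore differed from control by only 0.02 ± 0.05 for KRT8 (adjusted p = 0.873) and 0.05 ± 0.06 for KRT18 (adjusted p = 0.637). The difference between the knockdown groups passed for both, at 0.45 ± 0.06 for KRT8 (adjusted p = 0.00852) and 0.45 ± 0.07 for KRT18 (adjusted p = 0.0102).

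Within the pair the proportions were close in all 6 libraries. The ratio of KRT8 to KRT18 counts was 1.45 and 1.46 in shCBX8-2, 1.44 and 1.48 in shCBX8-1 and 1.49 and 1.50 in control. Neither gene was compared per length in this ratio, so it gives no ratio of molecules. One transcript carried most of each gene, with 92.4 to 96.2% of the KRT8 counts and 89.3 to 94.8% of the KRT18 counts over the 6 libraries. The calls of KRT8 and KRT18 against control in shCBX8-2 were lost when either control library or either shCBX8-1 library was left out, with adjusted p-values up to 0.181 for KRT8 and 0.163 for KRT18. KRT8 and KRT18 also share 50-base stretches with many processed pseudogenes, at 37.1% and 31.8% of the positions of their transcripts, and the spans of the 2 genes overlap by 1006 bases, so their counts are uncertain to that extent.

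KRT7, a type II keratin of ducts and glands, had 2576 and 2287 CPM in shCBX8-2, 2187 and 1852 CPM in shCBX8-1 and 2231 and 1970 CPM in control. The lower control library lay between the shCBX8-1 libraries, and both shCBX8-2 libraries lay above both control libraries. No comparison passed for KRT7: shCBX8-2 minus control was 0.21 ± 0.11 (adjusted p = 0.237) and shCBX8-1 minus control -0.06 ± 0.11 (adjusted p = 0.857). The difference between the knockdown groups was 0.27 ± 0.11 (adjusted p = 0.163). Part of the KRT7 span is shared with the pseudogene KRT87P, over 5310 bases, and with the antisense gene KRT7-AS, over 2406 bases. Their control means were 307 CPM for KRT87P and 25.6 CPM for KRT7-AS, and whether strand was used in counting is not given in the sources used here.

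KRT19, a type I keratin of simple epithelia that lacks most of the usual tail domain, was low in 2 of the 3 groups. It had 32 and 41 counts in shCBX8-2, 268 and 262 counts in shCBX8-1 and 27 and 24 counts in control. Scaled, that was 0.504 and 0.652 CPM in shCBX8-2, 4.11 and 3.97 CPM in shCBX8-1 and 0.407 and 0.359 CPM in control. Both shCBX8-1 libraries stood far above all others, and the shCBX8-2 libraries were only slightly above the control libraries. KRT19 rose 10.5-fold in shCBX8-1, by 3.39 ± 0.32 (adjusted p = 0.00789), while shCBX8-2 minus control was 0.59 ± 0.31 (adjusted p = 0.259). The knockdown groups differed by -2.80 ± 0.30 in shCBX8-2 minus shCBX8-1 (adjusted p = 0.00447). The rise in the mean of both groups, 1.99 ± 0.28 (adjusted p = 0.0141), thus averages 2 unlike values. In shCBX8-1 minus control the log2 difference of KRT19 stayed between 3.32 and 3.50 under the 13 alternatives tried, but the adjusted p lay above 0.05 without either control or either shCBX8-1 library, up to 0.161.

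KRT20, a type I keratin known from intestinal epithelium, the umbrella cells of the urothelium and Merkel cells, was the keratin that fell past the threshold in both knockdown groups. It had 0.820 and 0.636 CPM in shCBX8-2, 0.797 and 0.485 CPM in shCBX8-1 and 2.53 and 2.90 CPM in control. All 4 knockdown libraries were below both control libraries, and the 2 knockdown groups overlapped. KRT20 fell by 1.90 ± 0.37 on the log2 scale in shCBX8-2 (adjusted p = 0.0226), to 26.8% of the control mean. In shCBX8-1 it fell by 2.08 ± 0.38 (adjusted p = 0.0451), to 23.6% of the control mean. The difference between the groups was 0.18 ± 0.38 (adjusted p = 0.804).

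The KRT20 counts come from 2 entries of one RefSeq accession, the second marked as repeated, with nearly equal counts in every library: 26 and 20 in shCBX8-2, 24 and 14 in shCBX8-1 and 84 and 97 in control for the first entry. If the same reads stand in both, its level is stated too high and its spread too small. Without the repeated entries the differences kept their size, at -1.91 for shCBX8-2 (adjusted p = 0.0501) and -2.21 for shCBX8-1 (adjusted p = 0.0779), but neither passed. The span of the noncoding gene LOC105371777 overlaps that of KRT20 over 9354 bases, the whole span of KRT20. Overlap of their exons was not checked, so some reads of the 2 genes may not be told apart without strand. In the mean of both groups KRT20 fell by 1.99 ± 0.30 (adjusted p = 0.0171).

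KRT4, a type II keratin of the upper layers of mucosal stratified epithelium such as the oesophagus, had 8.57 and 6.69 CPM in shCBX8-2, 10.2 and 10.3 CPM in shCBX8-1 and 5.20 and 5.13 CPM in control. The groups did not overlap, with shCBX8-1 highest and control lowest. KRT4 rose by 0.99 ± 0.17 in shCBX8-1 (adjusted p = 0.0373). In shCBX8-2 the difference from control was 0.56 ± 0.17 (adjusted p = 0.0735), which did not pass, and the difference between the knockdown groups was -0.43 ± 0.17 (adjusted p = 0.158). The rise in the mean of both groups was 0.78 ± 0.15 (adjusted p = 0.0301). Without either control or either shCBX8-1 library the call in shCBX8-1 was lost, with adjusted p-values up to 0.279.

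Promoter sequences were at hand for only 3 of the 10 keratins. Those of KRT4 and KRT20 are shown, because for them the RefSeq table of GRCh38.p14 gives a start that fits the counted transcript. The 250 bases before the start are printed 5′ to 3′ on the gene's strand, KRT4 at chr12:52814117-52814366 and KRT20 at chr17:40885243-40885492, both on the minus strand. Capitals mark matches to TATAA or CATAAA, or on the opposite strand TTTATG.
KRT4: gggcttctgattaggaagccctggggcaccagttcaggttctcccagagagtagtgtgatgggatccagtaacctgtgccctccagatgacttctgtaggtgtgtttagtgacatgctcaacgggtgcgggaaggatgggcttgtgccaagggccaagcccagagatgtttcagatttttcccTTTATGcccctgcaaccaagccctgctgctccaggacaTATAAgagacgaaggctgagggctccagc
KRT20: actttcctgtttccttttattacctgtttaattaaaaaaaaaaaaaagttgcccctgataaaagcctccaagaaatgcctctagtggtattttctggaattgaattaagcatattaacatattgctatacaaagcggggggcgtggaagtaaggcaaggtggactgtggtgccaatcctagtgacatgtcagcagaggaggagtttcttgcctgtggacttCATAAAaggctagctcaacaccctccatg
The KRT4 window holds TATAA with its first base 29 bases before the start, and the KRT20 window holds CATAAA at the same distance of 29 bases. KRT4 also holds CATAAA on the opposite strand, 67 bases before the start. Searched on both strands of 35116 promoter windows of the same length, TATAA occurred in 18.93% and CATAAA in 9.64%. TGANTCA, the letters bound by AP-1 factors, was in neither window and occurred in 6.57% of all windows.

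KRT15, a type I keratin of basal keratinocytes and of stem cells of the hair follicle, had 70.5 and 60.6 CPM in shCBX8-2, 24.2 and 22.3 CPM in shCBX8-1 and 14.6 and 17.2 CPM in control. Both shCBX8-2 libraries were far above the rest, the shCBX8-1 libraries lay just above the control libraries, and no groups overlapped. KRT15 rose 4.12-fold in shCBX8-2, by 2.04 ± 0.14 (adjusted p = 0.00131). In shCBX8-1 the difference from control was 0.55 ± 0.13 (adjusted p = 0.0887) and did not pass. The knockdown groups differed by 1.50 ± 0.13 (adjusted p = 0.00205), and the mean of both rose by 1.30 ± 0.12 (adjusted p = 0.00597). The rise of KRT15 in shCBX8-2 passed under each of the 13 alternatives tried, with log2 differences of 1.91 to 2.15 and adjusted p-values up to 0.0343. No other keratin kept its call against control under all 13 in any group.

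KRT16, a type I keratin induced in wounded and hyperproliferative epidermis, had 428 and 250 counts in shCBX8-2, 137 and 120 counts in shCBX8-1 and 75 and 72 counts in control. Scaled, that was 6.75 and 3.97 CPM in shCBX8-2, 2.10 and 1.82 CPM in shCBX8-1 and 1.13 and 1.08 CPM in control. The order of the groups was that of KRT15, without overlap, but the 2 shCBX8-2 libraries differed widely from each other. KRT16 rose 4.85-fold in shCBX8-2, by 2.28 ± 0.31 (adjusted p = 0.00737), and the difference in shCBX8-1 was 0.83 ± 0.31 (adjusted p = 0.236). Between the knockdown groups the difference was 1.45 ± 0.30 (adjusted p = 0.0315), and the mean of both rose by 1.55 ± 0.28 (adjusted p = 0.0263). Of its 50-base stretches 22.0% occur in other genes, chiefly KRT16 pseudogenes and KRT14. The sum of KRT16 with KRT14, KRT17 and 3 pseudogenes was 416% of the control mean in shCBX8-2 and 169% in shCBX8-1, beside 486% and 178% for KRT16 alone. KRT14, the type I keratin of basal keratinocytes, had no count in any library.

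KRT80, a type II keratin found in many epithelia near desmosomes and in differentiated cells, had 129 and 122 CPM in shCBX8-2, 115 and 107 CPM in shCBX8-1 and 101 and 87.3 CPM in control. The groups followed one another in that order without overlap. Its rise in shCBX8-2 was small, at 0.41 ± 0.10 (adjusted p = 0.0368), and shCBX8-1 minus control was 0.24 ± 0.10 (adjusted p = 0.270). KRT80 is listed with 2 transcripts. The less abundant one took 40.4 and 42.5% of the gene's counts in shCBX8-2, 35.1 and 28.0% in shCBX8-1 and 31.9 and 31.2% in control. That share was highest in both shCBX8-2 libraries, while shCBX8-1 spanned the control values, and with 2 libraries a group it was not tested. Without either control or either shCBX8-1 library the call in shCBX8-2 was lost, with adjusted p-values up to 0.213.

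KRT81, a type II hair keratin, had 4312 and 3616 CPM in shCBX8-2, 3958 and 3989 CPM in shCBX8-1 and 4417 and 4568 CPM in control. All 4 knockdown libraries were below both control libraries. Their distance was small against the spread of the shCBX8-2 libraries, and the difference from control was -0.18 ± 0.08 in shCBX8-2 (adjusted p = 0.203) and -0.18 ± 0.08 in shCBX8-1 (adjusted p = 0.340). KRT81 lies within the span of KRT86 and shares 44.6% of its 50-base stretches with other genes, 38.4% with KRT86. The sum of KRT81 with KRT86, KRT83, KRT85 and the pseudogene KRT87P was 88.3% of the control mean in shCBX8-2 and 88.7% in shCBX8-1, close to 88.2% and 88.4% for KRT81 alone.

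**Figure D2:**
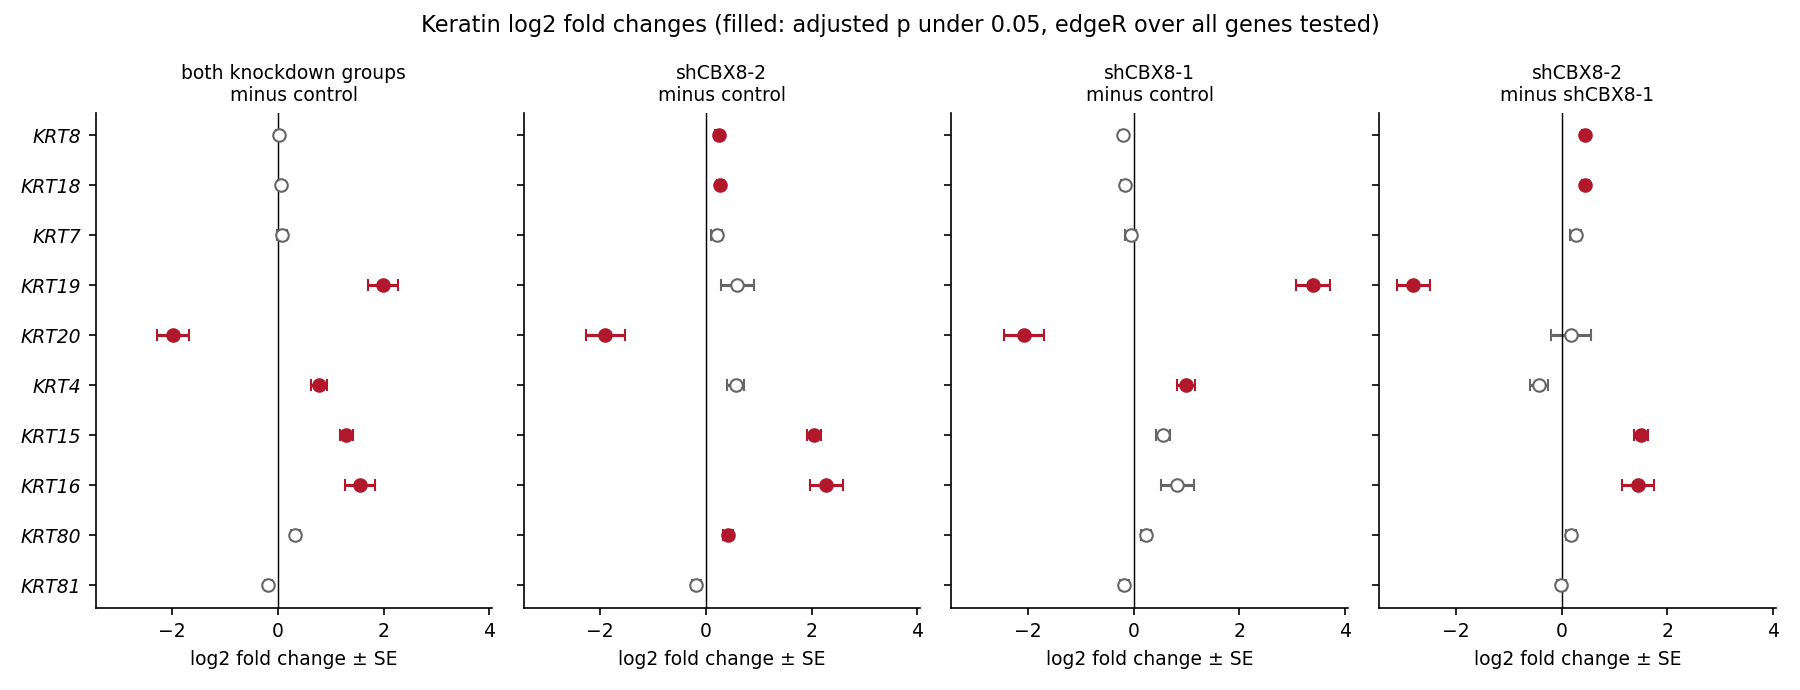
Log2 fold changes ± SE of the 10 keratins in 4 comparisons, with filled points for an adjusted p under 0.05 in edgeR over all genes tested. KRT20 lies left of 0 in all 3 comparisons with control, KRT15 and KRT16 are furthest right in shCBX8-2 and KRT19 in shCBX8-1.

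Between them the 10 genes span a wide range of levels. For levels per kilobase, the CPM of each transcript was divided by its own matched length and summed over the gene. KRT8 averaged 8604 CPM per kb in shCBX8-2, 6301 in shCBX8-1 and 7276 in control, the highest in each group. KRT18 followed with 7168 CPM per kb in shCBX8-2, 5247 in shCBX8-1 and 5913 in control. KRT81, KRT7 and KRT80 held the next ranks in this order in every group, from 2055 CPM per kb for KRT81 down to 32.4 for KRT80 in shCBX8-2, and no neighbours among these 5 overlapped within a library group. Below them stood KRT4, KRT16, KRT19 and KRT20, all under 5 CPM per kb, and their order differed between the groups. KRT16 was first of these 4 in shCBX8-2 with 3.26 CPM per kb on average, ahead of KRT4 with 2.96, a distance within the spread of the 2 libraries. In shCBX8-1 the order was KRT4 with 3.99, KRT19 with 2.91, KRT16 with 1.19 and KRT20 with 0.369 CPM per kb, and in control it was KRT4 with 2.00, KRT20 with 1.56, KRT16 with 0.671 and KRT19 with 0.275. KRT15 was left out of this order, because its matched length of 5237 bases exceeds the gene's span of 5146 bases.

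Type I keratins took a larger share of keratin counts in shCBX8-2. The summed counts of 26 type II genes over those of 29 type I genes were 2.04 in both shCBX8-2 libraries, 2.22 in both shCBX8-1 libraries and 2.22 and 2.24 in control. This ratio is lower in shCBX8-2 than in the other 4 libraries, and it was not tested. The type II sum includes the hair keratins KRT81, KRT86, KRT83 and KRT85, and the type I sum is nearly all KRT18.

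KRT15, KRT19 and KRT16 lie near one another on chromosome 17, and KRT20 lies further off in the same cluster. In GRCh38.p14 coordinates KRT15 spans chr17:41513745-41518890 (gene ID 3866), KRT19 chr17:41523617-41528308 (gene ID 3880), KRT16 chr17:41609778-41612767 (gene ID 3868) and KRT20 chr17:40875889-40885242 (gene ID 54474). KRT15 and KRT19 are neighbours, 4726 bases apart, and the knockdown groups differed in opposite directions: shCBX8-2 minus shCBX8-1 was 1.50 log2 for KRT15 and -2.80 log2 for KRT19. On the other side of KRT15, at 8132 bases, lies KRT13, the type I partner of KRT4 in mucosal epithelium. KRT13 had 61 and 66 counts in shCBX8-2, 36 and 17 counts in shCBX8-1 and 0 and 4 counts in control. It was higher in every knockdown library than in control and passed in shCBX8-2, with a log2 difference of 4.98 ± 1.11 (adjusted p = 0.0317) that rests on few control counts. In shCBX8-1 it did not pass (3.67 ± 1.10, adjusted p = 0.151).

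On chromosome 12 the members are KRT80 at chr12:52168996-52192014 (gene ID 144501), KRT7 at chr12:52233243-52255853 (gene ID 3855), KRT81 at chr12:52285913-52291534 (gene ID 3887), KRT4 at chr12:52806549-52814116 (gene ID 3851), KRT8 at chr12:52897191-52949860 (gene ID 3856) and KRT18 at chr12:52948855-52952906 (gene ID 3875). KRT86, KRT81, KRT83 and KRT85 follow one another there, and their log2 differences from control were -0.31 to -0.16 in both knockdown groups, with no test passed.

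**Figure D3:**
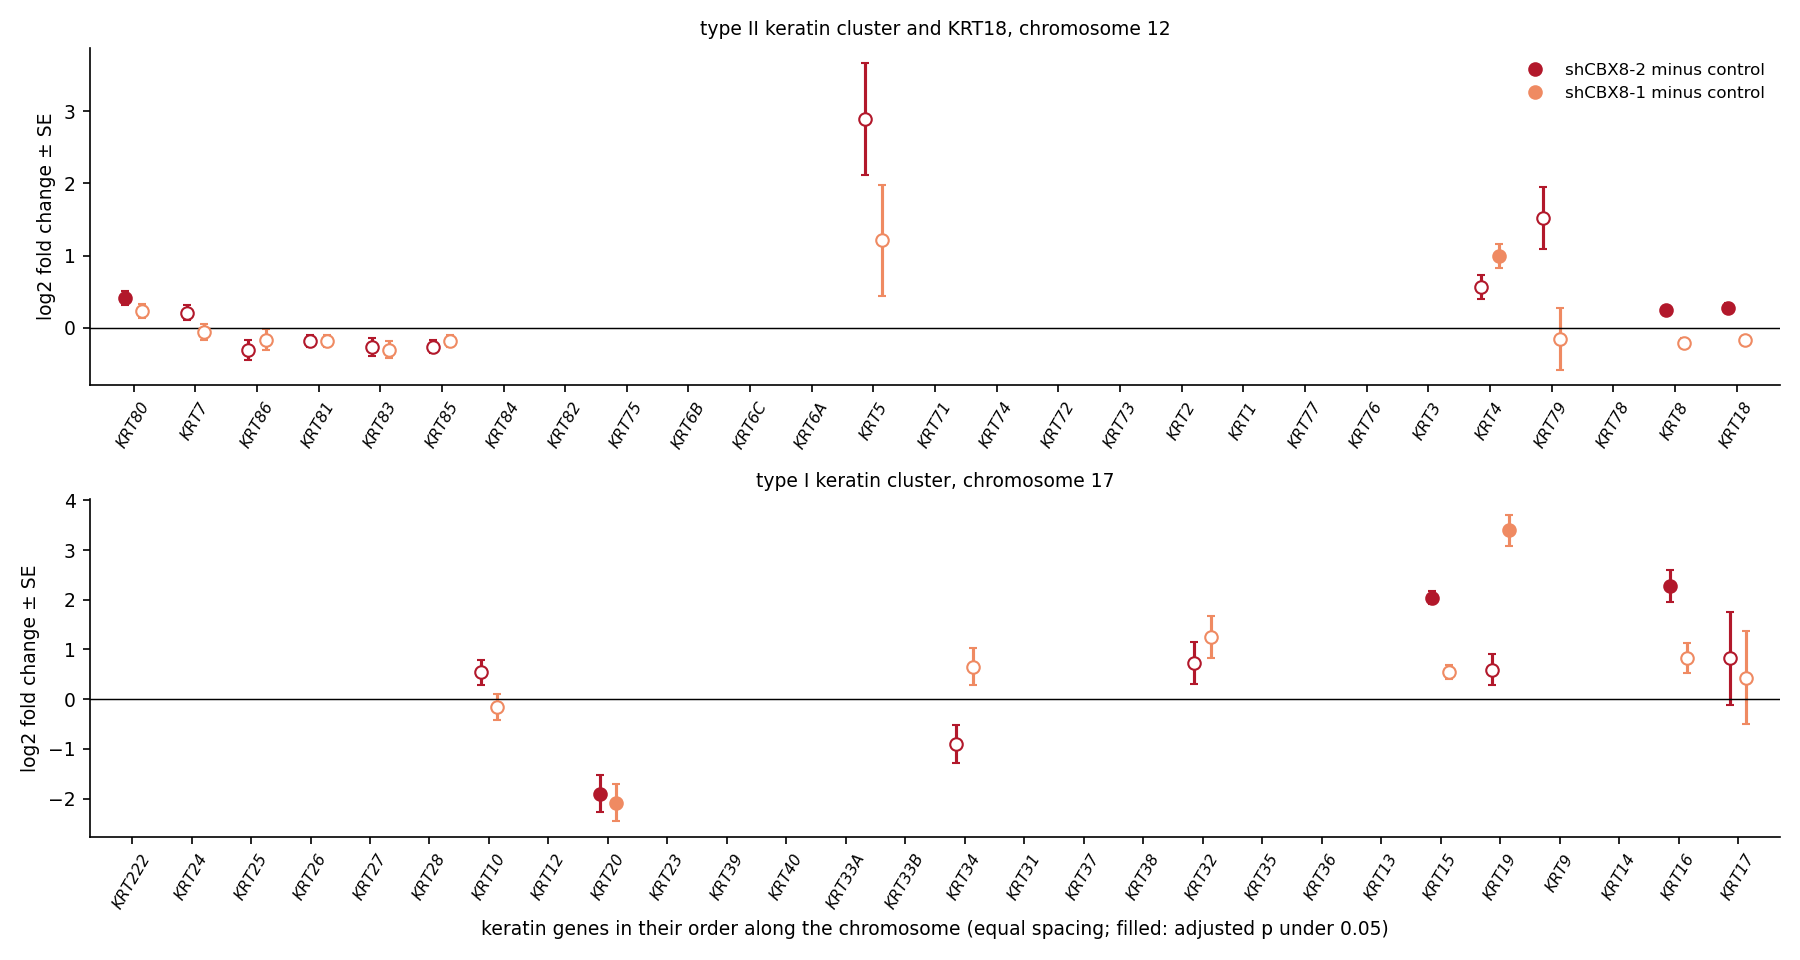
Log2 fold changes ± SE against control of the keratin genes in chromosomal order at equal spacing, with chromosome 12 above and chromosome 17 below and filled points for an adjusted p under 0.05. Genes that were not tested or that had no count in a library, KRT13 among them, carry no point, and KRT15 and KRT19 stand side by side with opposite hairpin patterns.

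The remaining keratins were mostly silent. Of the 45, 17 had no count in any library, 14 had counts but were too low to test and 14 were tested, 5 of them with a mean of at least 1 CPM. In the mean of both knockdown groups 0 of the 14 passed with edgeR, while 5 had an unadjusted p under 0.05 and 1 passed with DESeq2. In shCBX8-1 0 passed with edgeR, 3 had an unadjusted p under 0.05 and 1 passed with DESeq2. In shCBX8-2 1 rose, KRT13. Between the knockdown groups 1 differed, the hair keratin KRT34, at -1.56 ± 0.38 (adjusted p = 0.0488), which was named after its value was seen. Across all genes edgeR called 6.79% in the mean of both, 2.47% in shCBX8-1, 12.7% in shCBX8-2 and 9.82% between the knockdown groups. KRT5, the type II keratin of basal keratinocytes, had 34 and 59 counts in shCBX8-2, 14 and 16 counts in shCBX8-1 and 8 and 5 counts in control. The shCBX8-2 libraries were highest and no groups overlapped, but the difference of KRT5 from control did not pass in shCBX8-2 (2.89 ± 0.77, adjusted p = 0.0557) or in shCBX8-1 (1.21 ± 0.76, adjusted p = 0.492).

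Genes that anchor keratin filaments were compared as a list of 18 desmosome and plakin genes, of which 13 were tested. In shCBX8-2 4 rose and 0 fell, in shCBX8-1 1 rose and 0 fell, and in the mean of both 1 rose and 0 fell. Across all genes tested, 6.03% rose and 6.64% fell in shCBX8-2, and 1.34% rose and 1.13% fell in shCBX8-1. In the mean of both, 3.31% of all genes rose and 3.48% fell. The median log2 difference of the list was -0.14 in shCBX8-2, -0.14 in shCBX8-1 and -0.07 in the mean of both. PLEC, which encodes the plakin that links keratin to hemidesmosomes, had 1659 and 1605 CPM in shCBX8-2, 1407 and 1252 CPM in shCBX8-1 and 999 and 948 CPM in control. It was highest in shCBX8-2 and lowest in control without overlap, and it was the gene of this list that rose in both groups, by 0.75 ± 0.07 in shCBX8-2 (adjusted p = 0.00323) and 0.45 ± 0.07 in shCBX8-1 (adjusted p = 0.0336). PKP3, a desmosomal plakophilin, had 254 and 212 CPM in shCBX8-2, 146 and 121 CPM in shCBX8-1 and 134 and 130 CPM in control. PKP3 rose in shCBX8-2 by 0.82 ± 0.12 (adjusted p = 0.00892), differed by 0.02 ± 0.12 in shCBX8-1 (adjusted p = 0.969) and was 0.80 ± 0.12 higher in shCBX8-2 than in shCBX8-1 (adjusted p = 0.0117). DSP, the desmoplakin that ties keratin to the desmosome, was named after its values were seen: it rose by 0.57 ± 0.09 in shCBX8-2 (adjusted p = 0.0103), differed by -0.43 ± 0.09 in shCBX8-1 (adjusted p = 0.0611) and was 1.01 ± 0.09 higher in shCBX8-2 than in shCBX8-1 (adjusted p = 0.00207). PPL, periplakin, rose in shCBX8-2 by 0.65 ± 0.14 (adjusted p = 0.0298). JUP, plakoglobin, did not pass in either group, at -0.23 ± 0.10 in shCBX8-2 (adjusted p = 0.181) and -0.29 ± 0.10 in shCBX8-1 (adjusted p = 0.215).

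The other intermediate filament genes moved in both directions. Of 15 tested among 16, 3 rose and 3 fell in shCBX8-2, and 3 rose and 0 fell in shCBX8-1. In the mean of both 3 rose and 2 fell, with a median log2 difference of -0.28. Across all genes tested, 6.03% rose and 6.64% fell in shCBX8-2, and 1.34% rose and 1.13% fell in shCBX8-1. In the mean of both, 3.31% of all genes rose and 3.48% fell. VIM, the vimentin of mesenchymal cells, had 2201 and 1993 CPM in shCBX8-2, 1937 and 1926 CPM in shCBX8-1 and 1548 and 1504 CPM in control. Every knockdown library was above both control libraries, and VIM rose by 0.46 ± 0.06 in shCBX8-2 (adjusted p = 0.00756) and 0.34 ± 0.06 in shCBX8-1 (adjusted p = 0.0484). LMNA, which encodes the nuclear lamins A and C, rose by 0.60 ± 0.07 in shCBX8-2 (adjusted p = 0.00467) and 0.40 ± 0.07 in shCBX8-1 (adjusted p = 0.0423). LMNB2, a B-type lamin, rose by 0.54 ± 0.08 in shCBX8-2 (adjusted p = 0.00768) and differed by 0.33 ± 0.08 in shCBX8-1 (adjusted p = 0.0811). BFSP1, a beaded filament gene known from the lens, fell by 1.21 ± 0.11 in shCBX8-2 (adjusted p = 0.00241), against -0.13 ± 0.11 in shCBX8-1 (adjusted p = 0.609).

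A further list of 21 genes held transcription factors known to act on epithelial keratin genes, and also ESRP1, a splicing regulator. Of the 21, 17 were tested, ESRP1 not among them. In shCBX8-2 1 rose and 2 fell, beside 6.03% of all genes higher and 6.64% lower. In shCBX8-1 0 passed with edgeR, 5 had an unadjusted p under 0.05 and 2 passed with DESeq2. Across all genes, 2.47% passed there with edgeR and 9.99% with DESeq2. KLF4, a factor of epithelial differentiation, had 58.4 and 53.8 CPM in shCBX8-2, 28.0 and 32.6 CPM in shCBX8-1 and 26.4 and 27.8 CPM in control. It was high in shCBX8-2 alone, with a rise of 1.05 ± 0.11 against control (adjusted p = 0.00399) and a difference of 0.89 ± 0.11 against shCBX8-1 (adjusted p = 0.00736). SOX2, a factor of stem cells and of the airway lineage, had 0.504 and 0.556 CPM in shCBX8-2, 4.03 and 5.02 CPM in shCBX8-1 and 3.33 and 4.63 CPM in control. SOX2 was low in shCBX8-2 and overlapped between shCBX8-1 and control, and it fell in shCBX8-2 by 2.90 ± 0.28 (adjusted p = 0.00319). SOX9 fell in the mean of both groups by 0.40 ± 0.09 (adjusted p = 0.0472), and HNF4A, a factor of liver and gut epithelium, did not pass there at -0.49 ± 0.13 (adjusted p = 0.0753). The part of these factors in the keratin levels was not tested.

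For each keratin called in the mean of both knockdown groups, the genes of most similar pattern were sought among 13653 genes with a mean of at least 1 CPM. Likeness was the root mean square difference of log2 CPM, each gene centred on its own mean over the 6 libraries. The nearest gene to KRT15 was FBLN1, at a distance of 0.099 log2, with 566 and 459 CPM in shCBX8-2, 174 and 173 CPM in shCBX8-1 and 130 and 144 CPM in control, followed by WNT9A at 0.135 and LGR6 at 0.189. For KRT16 they were MEGF6 at 0.222, FBLN1 at 0.253 and WNT9A at 0.280, so 2 of its 3 genes were those of KRT15. This distance is not scaled to the size of a gene's changes. KRT19 lay further from its nearest gene than the other keratins compared here did from theirs. Its nearest gene was UNC13A at 0.404, with 4.35 and 5.09 CPM in shCBX8-2, 26.2 and 24.0 CPM in shCBX8-1 and 4.30 and 5.01 CPM in control, then IFI44L at 0.632 and LY6K at 0.640. KRT4 was nearest to CMTM3 at 0.089, FAM47E-STBD1 at 0.090 and PLAU at 0.109. KRT20 was nearest to JPH3 at 0.238, with 3.03 and 2.11 CPM in shCBX8-2, 3.37 and 1.26 CPM in shCBX8-1 and 8.88 and 12.03 CPM in control, then BDKRB2 at 0.287 and FBN2 at 0.300.

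The markers of other cell types also moved between the groups. Among the leukocyte markers CD3E was at 0, and the summed level was 118 and 111 CPM in shCBX8-2, 146 and 142 CPM in shCBX8-1 and 95.3 and 99.3 CPM in control, most of it CD68. That sum lies above the levels of KRT15, KRT4, KRT16, KRT19 and KRT20. CORO1A, which leukocytes express, rose by 0.94 ± 0.14 in shCBX8-2 (adjusted p = 0.00949) and by 1.35 ± 0.14 in shCBX8-1 (adjusted p = 0.0110), and CD68 rose in shCBX8-1 by 0.53 ± 0.08 (adjusted p = 0.0255). Of 10 fibroblast markers DCN was at 0 and 8 were under 1 CPM on average. The sum of all 10 was 20.6 and 18.9 CPM in shCBX8-2, 34.3 and 36.4 CPM in shCBX8-1 and 41.9 and 47.2 CPM in control. This sum, most of it ACTA2 and COL1A1, was lowest where KRT15 and KRT16 were highest. Of 6 endothelial markers KDR was at 0 and only CDH5 averaged at least 1 CPM. The sum of all 6 was 5.94 and 4.83 CPM in shCBX8-2, 3.20 and 4.29 CPM in shCBX8-1 and 2.82 and 2.00 CPM in control. This sum, most of it CDH5, followed the order of KRT15 and KRT16. The part of these markers in the keratin results was not tested. In bulk RNA, a change in the number of cells that express a keratin and a change in its RNA per cell cannot be told apart.

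Most keratin calls were lost when 1 of certain libraries was left out, as were those of most genes. Averaged over both knockdown groups, 0 of the 5 calls were left by edgeR without either control or either shCBX8-1 library, with 5 or 6 keratins at an unadjusted p under 0.05 in those settings, while 7 and 9 were made without shCBX8-2 replicates 1 and 2. Among all genes, 1, 1, 29 and 16 were called in the first 4 of these settings, and 18.1% and 25% without shCBX8-2 replicates 1 and 2. In the first 4 the log2 differences stayed close to those with all libraries, at 1.91 to 2.09 for KRT19, 0.77 to 0.79 for KRT4, 1.18 to 1.42 for KRT15, 1.50 to 1.60 for KRT16 and -2.19 to -1.83 for KRT20. In shCBX8-2 minus control 1 of the 6 calls was left, KRT15, without control replicate 1 or without control replicate 2, and 3 were left without either shCBX8-1 library, while 7 and 8 were made without shCBX8-2 replicates 1 and 2. Of all genes 1.01% and 0.781% were called there without the control replicates, 5.39% and 5.42% without the shCBX8-1 replicates and 19.5% and 30.9% without the shCBX8-2 replicates. In shCBX8-1 minus control 0 of the 3 were left by edgeR without either control or either shCBX8-1 library, with 5 or 6 keratins at an unadjusted p under 0.05 in those settings, and 7 were made without either shCBX8-2 library, where 13% of all genes were called. The 4 keratins gained in that last case beyond KRT19, KRT20 and KRT4 were KRT15, which rose, and KRT8, KRT18 and KRT81, which fell. Between the knockdown groups 1 of the 5 calls was left without shCBX8-1 replicate 1, that of KRT15, and 0 without shCBX8-1 replicate 2, where 5 keratins had an unadjusted p under 0.05 and KRT15 had an adjusted p of 0.0517, beside 0.708% and 0.807% of all genes called.

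**Figure D4:**
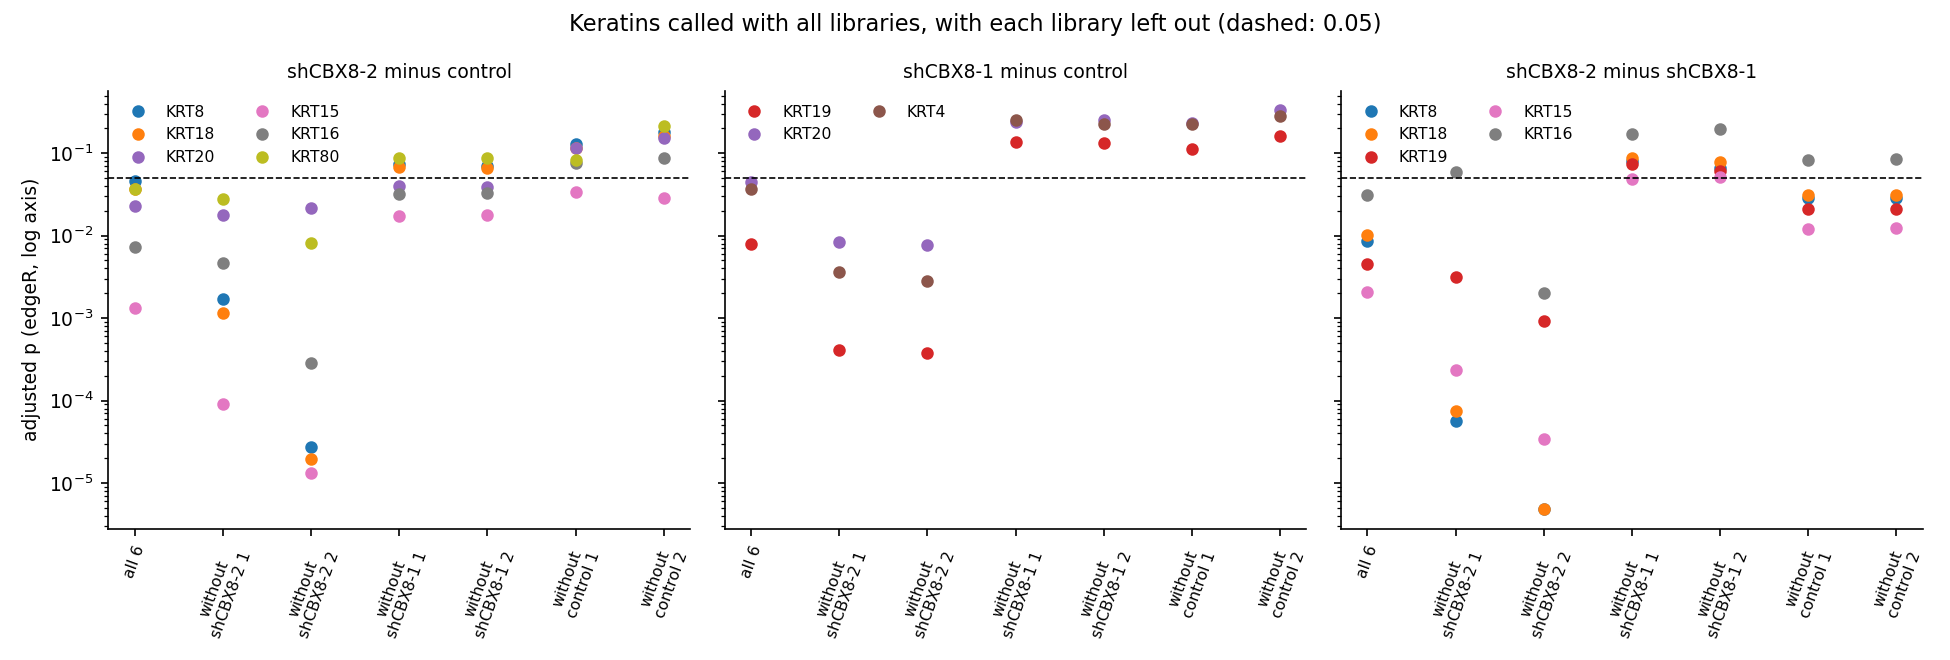
Adjusted p on a log axis for the keratins called with all 6 libraries and with each library left out, in shCBX8-2 minus control, shCBX8-1 minus control and shCBX8-2 minus shCBX8-1, with a dashed line at 0.05. In the left panel KRT15 stays below the line in every setting, with a highest adjusted p of 0.0343, and in the middle panel all 3 keratins lie above it when a control or shCBX8-1 library is missing.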

How the data were processed

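RNA of 6 libraries of A549 cells was sequenced. The authors deposited expected counts, meaning an estimate of the reads of each RefSeq transcript; HISAT2 2.2.1, StringTie 2.2.1, DESeq2 1.34.0 and the build hg38 are named, per the submitters' processing notes. The sources used here give neither the counting step nor its use of strand. The counts were whole numbers as deposited. Of 84787 entries, 83957 found a gene in RefSeq's GRCh38.p14 table and 363 in GENCODE v29, and 467 stayed unmatched. Counts were summed to 28452 genes.

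All genes were fitted together in edgeR 4.0.16 under R 4.3.3 (filterByExpr with minimum count 10 and minimum total 15, TMM scaling, quasi-likelihood fit of 3 groups with 3 residual degrees of freedom, two-sided, Benjamini-Hochberg). The common dispersion was 0.0369, a coefficient of variation of 19.2%. SEs were derived from the F statistic. The procedure was tested on simulated data. Alternatives were DESeq2 1.42.0 (size factors, Wald test), no filter, a 2-fold minimum, each library left out, replicate number as a block, a fit of only the libraries compared, the 4 knockdown libraries as 1 group, and no repeated accessions.

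The keratins and the lists were chosen with earlier results of these data known. Named were all 10 keratins, CBX8, up to 4 genes per list with the smallest p in the mean of both knockdown groups against control, the 3 genes nearest in pattern to each keratin called there, and genes sharing sequence with a keratin. Shared sequence was the share of 50-base stretches of a gene's transcript found in transcripts of other genes. Where a gene had several transcripts, the one with the most counts was used.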

Additional observations from a re-analysis of the deposited data

Results flagged for a closer look

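For 5 keratins the difference between the knockdown groups, tested in edgeR as shCBX8-2 minus shCBX8-1, passed the threshold. The log2 difference was 0.45 for KRT8, 0.45 for KRT18, 1.50 for KRT15 and 1.45 for KRT16, all higher in shCBX8-2, and -2.80 for KRT19, lower in shCBX8-2. Groups of 2 libraries are too small to look for a single library that stands apart.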

How the results depend on the processing

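DESeq2's size factors left the numbers of keratins called in the 4 comparisons unchanged, and no other scaling was tried. With each library left out in turn, 0 to 9 keratins were called in both knockdown groups on average minus control (5 with all libraries), 0 to 7 in shCBX8-1 minus control (3), 1 to 8 in shCBX8-2 minus control (6) and 0 to 7 in shCBX8-2 minus shCBX8-1 (5). Over all genes the share called in those settings was 0.00562 to 25%, 0 to 13%, 0.781 to 30.9% and 0.708 to 28.6%, so calls over all genes moved as well. The library left alone in a group is assumed there to vary like the others. With the 4 knockdown libraries as 1 group 0 were called by edgeR against control, and 6 had an unadjusted p under 0.05, with 0.158% of all genes called. A 2-fold minimum left 3 in shCBX8-2 minus control and 3 between the knockdown groups, beside 3.64% and 3.35% of all genes. A fit of only the libraries compared called 7 in shCBX8-1 minus control, 3 of them higher, and 3 in shCBX8-2 minus control, beside 14.4% and 5.97% of all genes. Over all genes tested, the deviations of same-numbered libraries from their group means had correlations of -0.0174 to 0.0462. A value over all genes does not show if some genes deviated together by number. With the replicate block 1 keratin was called in shCBX8-1 minus control and 5 in shCBX8-2 minus control, beside 1.01% and 9.84% of all genes. That fit called 5 keratins between the knockdown groups and 4 in the mean of both, beside 6.32% and 4.07% of all genes. Signs turned only for values that were not called with all libraries. With each library left out, KRT7 ranged from -0.010 (without control replicate 2) to 0.17 in the mean of both. In shCBX8-1 minus control KRT7 ranged from -0.17 to 0.071 (without shCBX8-1 replicate 2), and was 0.05 without control replicate 1. KRT8 ranged from -0.015 (without shCBX8-2 replicate 1) to 0.060 in the mean of both. KRT20 ranged from -0.16 (without shCBX8-1 replicate 2) to 0.55 between the knockdown groups. KRT81 ranged there from -0.12 (without shCBX8-2 replicate 1) to 0.12 (without shCBX8-2 replicate 2). The sign of KRT81 thus depended on which shCBX8-2 library was kept. It was 0.0052 with DESeq2's size factors and 0.0052 with DESeq2's Wald test. Among the values of single keratins under the alternatives, 403 kept direction and side of the threshold, 83 lost and 26 gained the call, and 8 changed sign. The cause of these changes was not tested.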
